A study of Mus musculus with 4 samples.

Results

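The genes described here encode the proteins of the cytoplasmic ribosome, and the data are the accessible chromatin regions at their promoters in the early mouse limb. Members were all protein-coding genes whose symbol begins with Rpl or Rps and a number, together with Rplp0, Rplp1, Rplp2 and Rpsa and without the Rps6k kinases. They numbered 91 of the 21883 protein-coding genes in the mouse gene table, which is on GRCm38.p6, the same assembly as the mm10 coordinates of the files. Of the 91, 43 encode standard proteins of the large subunit, 3 the proteins of its stalk and 31 standard proteins of the small subunit, which gives 77 standard genes. A further 9 are paralogs or share only the symbol, and 5 are retrocopies annotated as protein-coding.

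Accessibility was measured by ATAC-seq, in which the transposase Tn5 inserts sequencing adaptors into open chromatin. The cells were fixed cell suspensions of the forelimbs and hindlimbs of wild-type mouse embryos, with both limb types together in each sample, from a study of limb development. There were 2 replicates at each of 2 stages, E10.5 and E11.5 (embryonic days), and the titles' E10.5 was used although the protocol text names the earlier stage E10. Each stage has 1 deposited peak list that joins its 2 replicates, so a peak carries 1 value per stage with no replicate spread, and no difference between stages was tested. The lists comprised 99427 peaks for the earlier and 37548 for the later stage, of which 99356 and 37413 lay on chromosomes 1 to 19, X and Y and were used. Depth is unknown, because neither list gives reads. Of a list of limb mesenchyme genes, 10 of 10, among them Prrx1, Lmx1b and Hand2, had a promoter peak at E10.5 and 8 of 10 at E11.5, where Pitx1 and Tbx5 had none, beside 66.2% and 59.9% of all protein-coding genes. Genes marking surface ectoderm, blood, endothelium, muscle precursors and nerve or glia, 5 of each, also had peaks (4, 3, 3, 5 and 5 of them at E10.5 and 4, 4, 1, 2 and 4 at E11.5). Beside the shares of all genes, these counts identify neither the tissue nor its cell types. More cells with an open promoter and a more open promoter in each cell cannot be told apart in such bulk samples.

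A ribosome is built from 1 copy of nearly every one of these proteins and from ribosomal RNAs, and dividing cells such as those of a growing limb bud need many ribosomes. The genes are transcribed in essentially all cells, and many mRNAs begin with a C followed by a run of pyrimidines, the 5′ terminal oligopyrimidine tract through which growth signals control their translation. Their promoters mostly lack a canonical TATA box. Many host small nucleolar RNAs in their introns, and the mouse genome carries numerous processed pseudogenes of the family.

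Sequences around the start site are shown first, to show which letters surround it in members with strong, weak and absent peaks. All are from RefSeq on GRCm38.p6, run 5′ to 3′ on the gene's strand and cover 80 bases before the start and the first 30 transcribed bases. Capitals mark exact matches. Searched on both strands were GGGCGG, the core of the SP1 motif, and CCGGAAG, bound by ETS factors such as GABP. The YY1 word AAGATGGC, a CG-rich word TCGCGAGA and the NRF1 word CGCATGCG were searched likewise. So were the E box CACGTG, bound by Myc among others, and the TATA word TATAAA. TCGCGAGA is part of the palindrome TCTCGCGAGA but is not itself one, so its matches include sites without the full palindrome. On the sense strand alone a start-site tract was searched from 10 bases before to 10 after the start, as CTTTCC or with CTTTTC in its place. Overlapping matches were marked together. A match describes letters only; it is neither a bound site nor a cause. Rpl10a, among the strongest members of the E10.5 list, at chr17:28328391-28328500 on the plus strand, and Rps4x, the weakest at E10.5, at chrX:102189362-102189471 on the minus strand, read as follows.

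Rpl10a: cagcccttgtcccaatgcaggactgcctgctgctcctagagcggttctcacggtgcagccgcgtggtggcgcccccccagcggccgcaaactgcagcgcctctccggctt
Rps4x: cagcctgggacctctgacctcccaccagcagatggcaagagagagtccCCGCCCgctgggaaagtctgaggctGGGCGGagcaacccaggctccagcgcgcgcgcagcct

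Rpl10a has none of the searched words in this window, although a second annotated start of the gene has the palindrome 31 bases upstream, while the weak Rps4x promoter holds SP1 words on both strands. Further members show the words more frequent in the family, and Rps27 is set beside Rps27rt, which is counted here among the paralogs and other genes. These are Rps21 (chr2:180257299-180257408, plus strand), Rps3a1 (chr3:86142639-86142748, minus), Rps19 (chr7:24884512-24884621, plus), Rpl38 (chr11:114668500-114668609, plus), Rps27 (chr3:90213619-90213728, minus) and Rps27rt (chr9:114982710-114982819, minus), of which all but Rps27rt were chosen after their values were seen.

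Rps21: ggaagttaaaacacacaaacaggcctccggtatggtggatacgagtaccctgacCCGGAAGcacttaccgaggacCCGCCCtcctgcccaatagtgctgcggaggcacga
Rps3a1: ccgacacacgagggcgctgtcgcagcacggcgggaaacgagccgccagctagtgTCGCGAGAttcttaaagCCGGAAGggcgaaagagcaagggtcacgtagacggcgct
Rps19: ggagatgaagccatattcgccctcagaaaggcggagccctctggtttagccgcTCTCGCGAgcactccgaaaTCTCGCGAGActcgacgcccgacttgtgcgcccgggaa
Rpl38: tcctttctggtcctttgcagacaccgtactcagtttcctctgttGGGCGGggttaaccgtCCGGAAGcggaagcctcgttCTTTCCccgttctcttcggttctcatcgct
Rps27: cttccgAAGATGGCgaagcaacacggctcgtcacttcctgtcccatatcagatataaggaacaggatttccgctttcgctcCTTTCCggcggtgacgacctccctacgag
Rps27rt: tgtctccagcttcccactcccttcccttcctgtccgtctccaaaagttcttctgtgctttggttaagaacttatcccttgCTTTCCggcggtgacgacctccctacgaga

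Rps27 and Rps27rt share an unbroken run of 38 bases that starts at base 2 of the Rps27 transcript and at base 1 of the Rps27rt transcript, with the tract CTTTCC near its beginning. Upstream of that run 53 of 250 aligned bases are identical (21.2%). The Rps27 start lay inside a peak in both lists, and the Rps27rt start had none within 1 kb. By its sequence Rps27rt may be a retrocopy of Rps27, although it was counted with the paralogs and other genes. Counted with the retrocopies, it would lower their share with a peak and raise that of the paralogs and other genes.

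Members without a promoter peak in at least 1 list were Rps2 (chr17:24719983-24720092, plus), the tissue-restricted paralogs Rpl10l (chr12:66284372-66284481, minus), Rpl39l (chr16:10170148-10170257, plus) and Rpl3l (chr17:24727746-24727855, plus), and the retrocopies Rpl31-ps12 (chr16:16820167-16820276, minus), Rpl32l (chr10:20208359-20208468, plus), Rpl37rt (chr5:115110239-115110348, minus) and Rps23rg1 (chr8:3567918-3568027, plus), besides Rps27rt above.

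Rps2: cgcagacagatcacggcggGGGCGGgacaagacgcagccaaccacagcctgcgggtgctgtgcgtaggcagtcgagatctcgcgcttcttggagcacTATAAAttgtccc
Rpl10l: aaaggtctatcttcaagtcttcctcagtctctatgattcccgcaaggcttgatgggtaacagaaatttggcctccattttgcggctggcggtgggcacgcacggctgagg
Rpl39l: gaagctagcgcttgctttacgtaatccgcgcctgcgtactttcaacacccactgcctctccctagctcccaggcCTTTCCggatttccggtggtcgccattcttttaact
Rpl3l: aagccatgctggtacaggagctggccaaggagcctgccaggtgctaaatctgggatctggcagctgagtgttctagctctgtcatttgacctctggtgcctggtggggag
Rpl31-ps12: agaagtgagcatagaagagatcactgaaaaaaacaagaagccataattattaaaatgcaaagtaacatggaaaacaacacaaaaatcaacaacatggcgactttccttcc
Rpl32l: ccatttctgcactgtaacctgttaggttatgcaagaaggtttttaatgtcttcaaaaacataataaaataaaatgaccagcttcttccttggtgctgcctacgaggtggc
Rpl37rt: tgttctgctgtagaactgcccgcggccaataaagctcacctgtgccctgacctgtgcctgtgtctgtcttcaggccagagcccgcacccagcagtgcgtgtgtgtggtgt
Rps23rg1: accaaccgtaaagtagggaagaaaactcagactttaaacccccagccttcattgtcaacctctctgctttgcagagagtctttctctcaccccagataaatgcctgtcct

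Of these, Rps2 carries an SP1 word and a TATA word that begins at transcribed base 18, downstream of the start. Rpl39l carries a start-site tract, and the other 6 show none of the searched words in the window.

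Nearly every standard ribosomal protein gene had an accessible promoter at both stages. A peak counted as a promoter peak when its nearer edge, or any part of it, was within 1 kb of the start, taken as the outer end of the annotated gene. By this measure 76 of 77 standard genes had one at E10.5 and the same 76 at E11.5 (98.7%, 95% Wilson interval 93.0 to 99.8% in each list, for counting error only). Of all 91 members, 83 had one at E10.5 (91.2%) and 82 at E11.5 (90.1%), with 82 in both lists. Among 21532 protein-coding genes with a known strand the shares were 66.2% at E10.5, 59.9% at E11.5 and 59.5% in both. All 43 large-subunit and all 3 stalk genes had a peak in both lists, as did 30 of 31 small-subunit genes.

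Rps2, which encodes a protein at the entry of the mRNA channel, was the exception, and it turned on where the start is placed. Its outer start lay 1229 bp from the nearest E10.5 peak, which had a signal of 3775, and 1460 bp from the nearest E11.5 peak, with 2562. The start in the RefSeq promoter table, at position 24720063 of chromosome 17, lay inside both of those peaks. The members just inside the 1 kb limit were similar. Rpl17 had its E10.5 peak 960 bp and its E11.5 peak 982 bp away, Rpl22 894 and 921 bp, and Rps27l 620 and 899 bp, and for Rpl22 and Rps27l the table's start lay inside the peak in both lists.

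**Figure D1:**
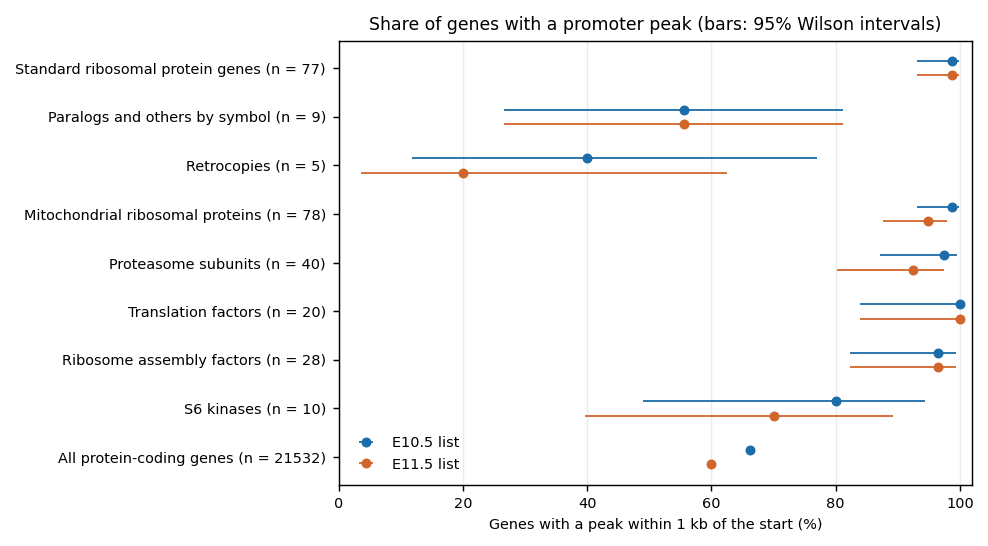
Share of genes (%) with a peak within 1 kb of the start in each list, for ribosomal protein genes by class and for other gene lists; points are shares and bars 95% Wilson intervals. The standard genes stand at 98.7% in both lists, against 66.2% and 59.9% of all protein-coding genes, and the retrocopies at 40% and 20%.

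Among the genes that the symbol rule adds to the standard set, some had promoter peaks and others had none called. Of the 9 paralogs and other genes, 5 had a peak in both lists and 4 had none in either. The 5 with a peak were Rpl36al, a paralog of Rpl36a (signal 6468 at E10.5 and 6142 at E11.5), Rps27l, a p53-inducible paralog of Rps27 (6579 and 3366), Rpl22l1, a paralog of Rpl22 (4205 and 3905), Rpl7l1 (4378 and 1507), and Rps19bp1, which encodes a protein that binds Rps19 (3550 and 1744). The 4 without were Rpl10l and Rpl39l, paralogs used in the male germ line, Rpl3l, a paralog of heart and skeletal muscle, and Rps27rt. The nearest E10.5 peaks lay 25188 bp from Rpl10l, 22182 bp from Rpl39l, 3001 bp from Rpl3l and 3245 bp from Rps27rt. The E11.5 distances were 774718, 22329, 3193 and 3404 bp.

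Only 1 of the 5 retrocopies, Rpl34-ps1, had a promoter peak in both lists, and both peaks began downstream of the start, at distances of 433 and 491 bp, with signals of 1545 at E10.5 and 395 at E11.5. Rps23rg1 had a peak over its start at E10.5 with a signal of 954, and at E11.5 the nearest peak was 19220 bp away. Rpl31-ps12, Rpl32l and Rpl37rt had none, with the nearest E10.5 peaks 8702, 12903 and 8411 bp away and the nearest E11.5 peaks 8692, 37449 and 8563 bp away.

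The annotated pseudogenes of the family were rarely covered. Of 324 ribosomal protein pseudogenes, 1 was overlapped by a peak in each list (0.309%, 95% Wilson interval 0.0545 to 1.73%), against 5.13% of all 10429 pseudogenes in the earlier list and 3.18% in the later. The one was Rps4l on chromosome 6 in both lists, with signals of 525 and 1488. The family's pseudogenes are shorter, with a median length of 533 bp against 932 bp, and the part of length in the share was not tested.

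Within each list the members' peaks had a lower median signal than all promoter peaks and a smaller share among the strongest. The signal is the authors' value per peak; it grows with width, and it is used here only to rank and describe peaks within its own list, since the lists are not known to share a scale. The 90 member peaks of E10.5 had a median signal of 3641 (range 239 to 13214) beside 4313 over all 14010 promoter peaks, and the 89 of E11.5 had 2566 (224 to 11080) beside 2781 over 12489. As percentiles of the whole list, where 100 is the highest, the medians were 84.9 for members and 87.8 for all promoter peaks at E10.5, and 77.7 and 79.4 at E11.5. With the E10.5 list reduced to the length of the other by signal, the E10.5 medians were 61.7 and 73.9. The highest 10% of the list by signal held 21 of the 90 member peaks at E10.5 (23.3%) beside 42.6% of all promoter peaks, and 13 of 89 at E11.5 (14.6%) beside 25.1%.

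By the peak caller's −log10 p the picture was different at E10.5. The members' median −log10 p was 10.6 beside 9.77 for all promoter peaks, and 8.36 beside 8.04 at E11.5. The highest 10% by −log10 p held 48 of the 90 member peaks at E10.5 (53.3%) beside 42.5% of all promoter peaks, and 19 of 89 at E11.5 (21.3%) beside 25.0%. Signal per bp gave median percentiles of 85.3 for members and 85.8 for all promoter peaks at E10.5, and 79.5 and 77.0 at E11.5. The E10.5 member peaks were narrower, with a median width of 1306.5 bp beside 1424.5 bp, while at E11.5 the medians were 1167 and 1166 bp. At E11.5 the members' median signal and their share in the highest 10% were below those of all promoters. Their median signal per bp was higher, at 2.44 beside 2.32. The upper quartile of their width was lower, at 1338 bp beside 1553 bp. The part of width in the ranks was not tested.

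**Figure D2:**
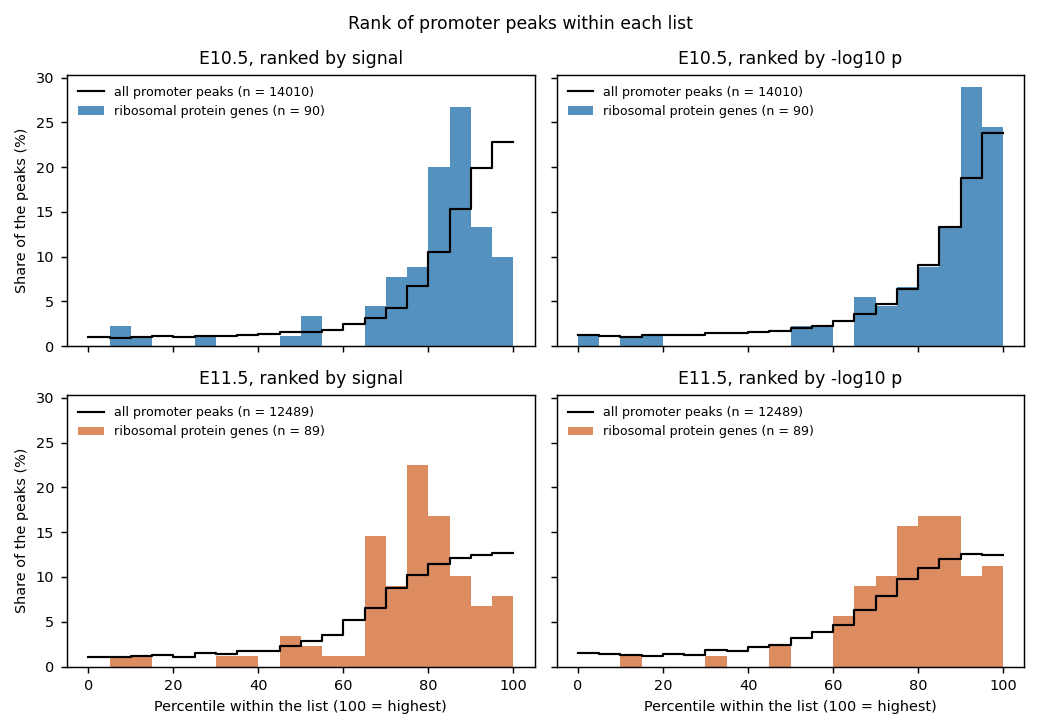
Percentile of promoter peaks within their list by signal (left) and by −log10 p (right), in bins of 5 percentile points, for E10.5 (top) and E11.5 (bottom); bars are ribosomal protein gene peaks and the black line all promoter peaks, both in % of the peaks. By signal the members are fewer than all promoters above the 90th percentile, and by −log10 p at E10.5 they are not.

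Among the large-subunit and stalk genes the 50 E10.5 peaks had a median signal of 3747 and the 51 E11.5 peaks 2566, and among the small-subunit genes the 33 and 32 peaks had 3504 and 2736. Rpl7 was the strongest member in both lists, with a signal of 13214 at E10.5 (rank 729 of 99356) and 11080 at E11.5 (rank 136 of 37413), over a peak of 3011 and 2996 bp that also reaches the start of Rdh10, a retinol dehydrogenase gene. Among the next at E10.5 were Rpl10a, of the L1 stalk (9320), Rps21 (8947) and Rps29 (7846). At E11.5 they were Rpl41, the smallest protein of the set (7713), Rpl15 (7285), Rpl37 (7072) and Rps29 (6760). The Rpl41 summit at E11.5 lay 1356 bp downstream of its start, and the Zc3h10 start lies 1160 bp downstream. The Rpl7 summit lay at −1357 bp from its start at E10.5 and at −309 bp at E11.5, and the Rdh10 start lies 1449 bp upstream. Rpl10a had 3163 at E11.5, at percentile 82.3 of that list.

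At the low end the members with the weakest strongest peak at E10.5 were Rps4x (942), the retrocopy Rps23rg1 (954), Rpl4 (1462), Rps7 (1493) and the retrocopy Rpl34-ps1 (1545). At E11.5 they were Rpl34-ps1 (395), Rpl4 (727), Rps4x (983), Rpl6 (1180) and Rps26 (1463). The promoters of Rpl4 and Rps26 were each split into 2 called peaks in both lists. For Rpl4 these had 1462 and 764 at E10.5 and 727 and 678 at E11.5, and for Rps26 2708 and 891, and 1463 and 625. Across the 76 standard genes with a peak in both lists, Spearman's rho between the E10.5 and the E11.5 signal of the nearest peak was 0.63, beside 0.72 across all 12820 genes; genes share the libraries and are not replicates.

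**Figure D3:**
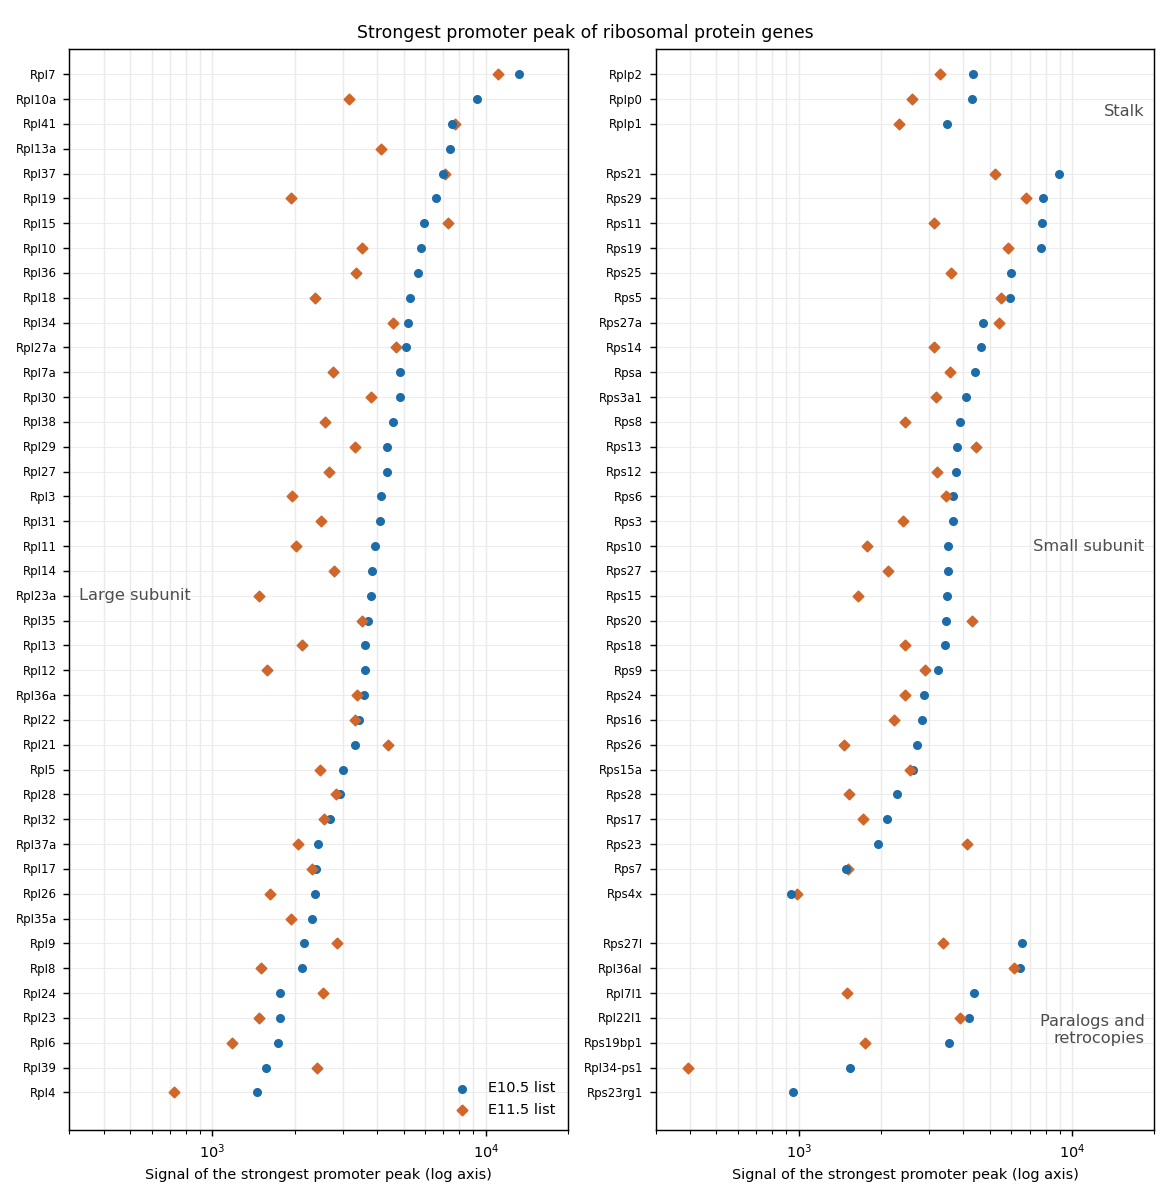
Signal of the strongest promoter peak (log axis) of ribosomal protein genes that have one, by class and ordered by the E10.5 list; circles are E10.5 and diamonds E11.5, 1 value per list without error because each list joins 2 replicates. Rpl7 is highest in both lists at 13214 and 11080, and Rps4x, Rpl4 and the retrocopies are at the low end.

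The stalk genes Rplp0, Rplp1 and Rplp2 encode the acidic proteins that recruit translation factors, and they lay in mid-range. Their signals were 4306, 3485 and 4345 at E10.5 and 2593, 2322 and 3277 at E11.5. Rpsa, a small-subunit protein also known as the laminin receptor, had 4428 and 3570. The 4 X-linked members spanned much of the family's range: Rpl10 had 5810 at E10.5 and 3511 at E11.5, Rpl36a 3579 and 3377, Rpl39 1570 and 2414, and Rps4x 942 and 983.

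Members with known developmental mutants or links to inherited anaemia all had a peak in both lists. Rpl38, whose loss in Tail-short mice alters the axial skeleton, had a strong peak of 1695 bp with a signal of 4571 at E10.5, at chr11:114668346-114670040, which lies 528 bp from the outer start and covers the table's start at 114668580. The E11.5 peak had 2586. A second, weak E10.5 peak of 379 bp and a signal of 239 covered the outer start and had no counterpart at E11.5. Rpl24, mutated in the Belly spot and tail mouse, had 1775 and 2530, at percentiles of 70.6 and 77.4. Rps19, the gene most often mutated in Diamond-Blackfan anaemia, was among the stronger members, with 7728 and 5853. Rps20, with a dark-skin mutant allele in mice as Rps19 has, had 3458 and 4316. Rpl5 and Rpl11, which bind Mdm2 when ribosome assembly is impaired, had 3006 and 3921 at E10.5 and 2479 and 2021 at E11.5. Rps7 had 1493 and 1521, Rpl27a 5114 and 4681, and Rps6, the substrate of the S6 kinases, 3664 and 3463. By their strongest peak these genes ranged from Rps7 to Rps19 at E10.5, within the range of the family.

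Most members with a promoter peak had a single one, as did most protein-coding genes. Several were found in 1074 of the 14264 protein-coding genes with a peak at E10.5 and in 882 of 12903 at E11.5. Among members the counts were 7 of 83 and 7 of 82. At E10.5 7 members had 2: Rps3a1, Rpl9, Rps15a, Rpl4, Rpl41, Rps26 and Rpl38. At E11.5 7 members had 2, among them Rps27, Rpl9, Rpl27a, Rpl4, Rps26 and Rpl15, so Rpl9, Rpl4 and Rps26 were split in both. In some cases the peak farther from the start was the weaker one. It had a signal of 243 for Rps3a1, 290 for Rps15a and 413 for Rpl9 at E10.5, and of 224 for Rps27, 250 for Rpl27a, 511 for Rpl9 and 631 for Rpl15 at E11.5. For Rpl4 and Rps26 in both lists, and for Rpl38 and Rpl41 at E10.5, the peak nearest the start was instead the weaker one. The peak over the Rpl41 start had 3372 at E10.5, and a second one downstream, near the start of Zc3h10, had 7513. At E11.5 a single peak of 2808 bp spanned both. The widest member peaks at E10.5 were those of Rpl10a (3337 bp) and Rpl7 (3011 bp), and at E11.5 those of Rpl7 (2996 bp), Rpl41 (2808 bp) and Rpl15 (1913 bp). The narrowest were second or weak peaks of Rpl9 (196 bp), Rps3a1 (245 bp) and Rpl38 (379 bp) at E10.5, and of Rps27 (144 bp) and Rpl9 (222 bp) at E11.5.

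The E10.5 and E11.5 peaks of the family largely covered the same ground. Of the 90 E10.5 member peaks, 87 overlapped an E11.5 peak by at least 1 bp (96.7%, 95% Wilson interval 90.7 to 98.9%), beside 86.0% of all E10.5 promoter peaks. With the E10.5 list reduced by signal to the length of the other, these shares were 100% and 96.3%. Without that reduction the E10.5 share was 94.9% in mitochondrial ribosomal protein genes and 92.7% in proteasome genes. It was 90.9% in translation factors and 100% in ribosome assembly factors. All 89 E11.5 member peaks overlapped an E10.5 peak (lower bound 95.9%), beside 98.8% of all E11.5 promoter peaks. The 3 E10.5 peaks without overlap were the Rps23rg1 peak (signal 954), the second Rps3a1 peak (243) and the weak Rpl38 peak (239). All 3 are low among the members, although the Rps23rg1 peak was at percentile 53.9 of the list. When the nearest peak of each of the 82 genes with one in both lists was taken, 81 pairs overlapped, all but that of Rpl38, and the median distance between the summits was 13 bp, beside 23 bp over all 12820 genes. This distance was 12.5 bp in mitochondrial ribosomal protein genes, 14 bp in assembly factors, 19 bp in proteasome genes and 20.5 bp in translation factors. Summits lay within 100 bp of each other in 67 of the 82 pairs (81.7%), beside 77.5% of all genes.

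The median summit, the position of highest signal in a peak, lay upstream of the start in the members. It was 59 bp upstream at E10.5 (−59 bp, quartiles −143 and 19 bp) and 42 bp upstream at E11.5 (−42 bp, quartiles −146 and 28 bp), beside medians of 21 bp and 11 bp downstream for all promoter peaks. Of the member peaks 61 of 90 had the summit upstream at E10.5 (67.8%) and 57 of 89 at E11.5 (64.0%), beside 43.6% and 45.9% of all promoter peaks. The summit was within 200 bp of the start in 67 peaks of each list (74.4% and 75.3%), beside 58.3% and 65.3%. With the start sites of the RefSeq promoter table the medians were −70 and −49 bp for members and −10 and −19 bp for all genes, so the distance between the members' median and that of all genes was then smaller.

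Peaks that contain the start reached 670 bp upstream and 629 bp downstream of it at E10.5 (medians), beside 555 and 902 bp for all promoters. At E11.5 the medians were 544 and 659 bp, beside 420 and 742 bp. The members' peaks reached further upstream and less far into the gene than the median promoter. The summits farthest upstream were those of Rpl7 (−1357 bp) and the second peaks of Rps15a (−1268 bp) and Rpl9 (−537 bp) at E10.5, and the second peaks of Rpl27a (−1096 bp) and Rpl15 (−1019 bp) at E11.5. Those farthest downstream were Rpl17 (1565 bp), Rpl22 (1420 bp) and the second peak of Rpl41 (1361 bp) at E10.5, and Rpl17 (1552 bp), Rps27l (1474 bp) and Rpl22 (1420 bp) at E11.5.

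**Figure D4:**
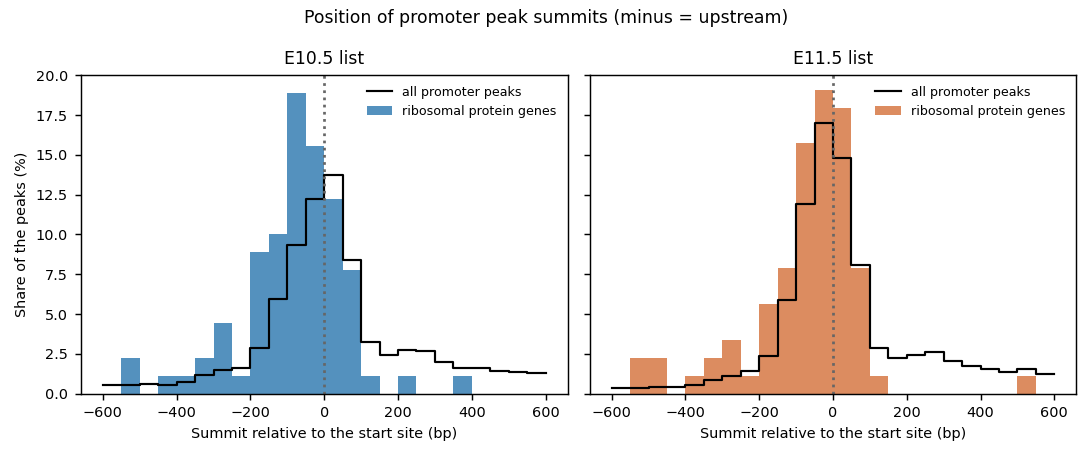
Distance of the summit from the start site in bp (negative values are upstream), in bins of 50 bp from −600 to 600 bp, for E10.5 (left) and E11.5 (right); bars are ribosomal protein gene peaks and the black line all promoter peaks, both in % of the peaks. The members' medians are −59 and −42 bp and those of all promoter peaks 21 and 11 bp.

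About 1 in 4 member peaks also served as the promoter peak of another protein-coding gene. At E10.5 21 of the 90 member peaks (23.3%) were also within 1 kb of another protein-coding start, and at E11.5 22 of 89 (24.7%), beside 9.71% and 10.5% of all promoter peaks. The shares were higher in mitochondrial ribosomal protein genes (42.3% and 45.2%) and ribosome assembly factors (41.4% and 37.9%). They were lower in proteasome genes (19.5% and 20.5%) and translation factors (18.2% and 20%). The shared member peaks involved 18 members, each with 1 neighbour, and in 14 of the 18 pairs the genes lay head to head on opposite strands. The distance between the paired starts had a median of 102.5 bp, from 10 bp for Rps28 and Ndufa7, a subunit gene of respiratory complex I, to 1449 bp for Rpl7 and Rdh10. The strongest shared peaks at E10.5 were those of Rpl7 with Rdh10, Rpl41 with Zc3h10, Rpl37 with Card6, Rpl19 with Cacnb1 and Rpl36al with Mgat2. The signal of such a peak cannot be divided between its genes.

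The promoter sequences of the members were set beside those of all genes and of like gene lists. RefSeq sequences of 300 bases, 250 before and 50 after the start, were held for 70 members (82 sequences, as a gene can have several starts), of which 57 are standard genes (67 sequences), and for 17491 protein-coding genes (21262 sequences). The ratio of observed to expected CpG had a median of 0.88 in standard genes and 0.57 in all genes, with G+C at 58.3 and 56.3%. It was 0.82 in mitochondrial ribosomal protein genes, 0.82 in ribosome assembly factors, 0.79 in proteasome genes and 0.97 in translation factors, so a high CpG ratio was shared by these lists. Of the 67 standard sequences 25 held the ETS word CCGGAAG (37.3%), beside 11.6% of all sequences. The CG-rich word TCGCGAGA was in 12 (17.9%) beside 1.41%, the start-site tract in 11 (16.4%) beside 1.29%, and a C at the first transcribed base in 21 (31.3%) beside 13.8%. The YY1 word AAGATGGC was in 7 (10.4%) beside 3.05%, the SP1 word GGGCGG in 41 (61.2%) beside 46.2%, the E box CACGTG in 8 (11.9%) beside 7.84%, the NRF1 word CGCATGCG in 3 (4.48%) beside 2.52%, and TATAAA in 6 (8.96%) beside 12.6%. The 7 TATAAA matches in standard genes began between −177 and 38 relative to the start, with a median of 4. Their share thus counts the word at any position in the sequence. Several starts of 1 gene enter as separate sequences, so the same site can count more than once. By gene, the YY1 word was in 5 of the 57 standard genes, beside 624 of 17491 protein-coding genes. The E box was in 6 standard genes beside 1559 of all, and the SP1 word in 35 beside 8610.

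The genes with the CG-rich word TCGCGAGA were Rpl10a, Rpl12, Rpl26, Rpl27a, Rpl35, Rpl7a, Rps15a, Rps19, Rps28, Rps3a1 and Rps6. In Rps19 it was found at more than 1 place near the start, and since the gene has several annotated starts the same site enters more than once; no count of sites is given for that reason. Standard genes with the tract were Rpl12, Rpl15, Rpl18, Rpl27a, Rpl28, Rpl34, Rpl35, Rpl35a, Rpl38, Rps10 and Rps27. The ETS word was about as frequent in mitochondrial ribosomal protein genes (26 of 75 sequences, 34.7%) and proteasome genes (12 of 35, 34.3%), and the YY1 word was in 12 of 75 mitochondrial ribosomal protein sequences (16%). The CG-rich word and the tract were each found in 1 of 75 mitochondrial ribosomal protein sequences (1.33%). The tract was in 0 of 15 translation factor sequences. It counts only CTTTCC and CTTTTC, so other pyrimidine runs at a start are left out. A C at the first base was in 5 of 15 translation factor sequences (33.3%). Its share was 14.7% in mitochondrial ribosomal protein, 14.3% in proteasome and 3.13% in assembly factor sequences. No test was made of these differences.

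**Figure D5:**
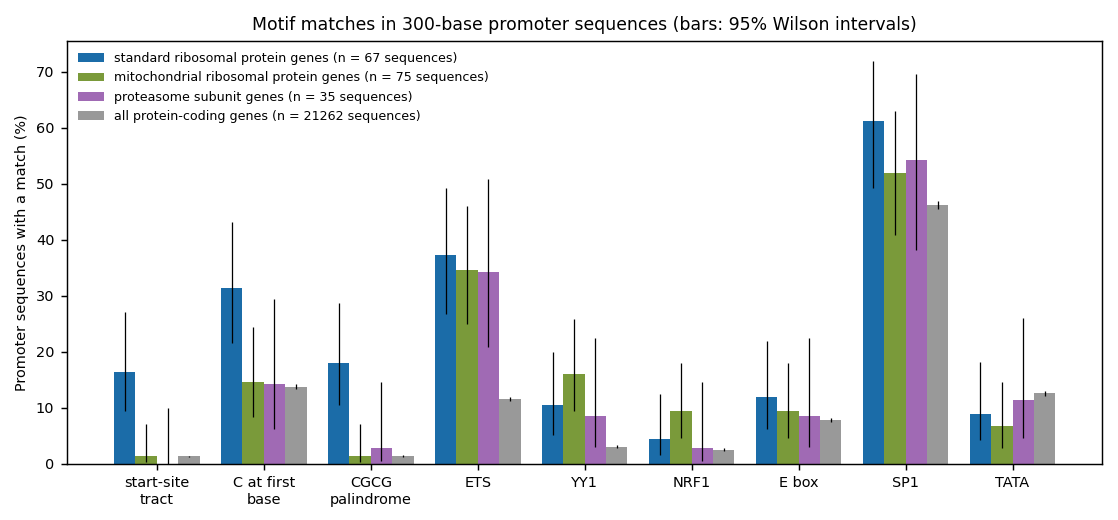
Share of 300-base promoter sequences (%) that hold each word or feature, in standard ribosomal protein genes, mitochondrial ribosomal protein genes, proteasome genes and all protein-coding genes; error bars are 95% Wilson intervals, for counting error only. The start-site tract and the CG-rich word TCGCGAGA stand at 16.4% and 17.9% in standard ribosomal protein genes and at 1.29% and 1.41% in all genes. Several starts of a gene count as separate sequences that can overlap, while the intervals treat all sequences as independent.

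Standard genes with and without a given word had overlapping ranges of signal. The 23 genes with a peak and the ETS word had a median signal of 3921 at E10.5 (239 to 8947) and 3189 at E11.5 (625 to 7713), and the 33 without it 3489 (764 to 9320) and 2561 (678 to 5853). The 11 with the CG-rich word TCGCGAGA had 3701 (2290 to 9320) and 3163 (1532 to 5853), beside 3504 and 2530 in the 45 without it. The 11 with the tract had 3605 and 2586, beside 3579 and 2593. For the SP1 word the medians were 4100 and 2979 in 34 genes with it and 2901 and 2431 in 22 without it. These are the signals of nearest peaks. The nearest peak was the weaker one for Rpl4 and Rps26 in both lists, and for Rpl38 and Rpl41 at E10.5. With the ETS word, the low ends of 239 and 625 are such peaks of Rpl38 and Rps26. Without it, the low ends of 764 and 678 are such peaks of Rpl4. These low ends are therefore not the strongest peaks of those promoters.

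Other genes of protein synthesis and turnover give the family's values a scale. Of 78 mitochondrial ribosomal protein genes, whose products build the separate ribosome of mitochondria, 77 had a promoter peak in the E10.5 list and 74 in the E11.5 list, and of 40 proteasome genes 39 and 37. All 20 translation factors and related genes, such as Eef1a1 and Rack1, had one in both lists, as did 27 of 28 ribosome assembly factors, Ubtf being the one without. Fau, which encodes a ribosomal protein joined to a ubiquitin-like protein and which the symbol rule leaves out, had signals of 3178 at E10.5 and 1744 in the later list. Of the 10 S6 kinase genes 8 and 7 had a peak. Median percentiles by signal at E10.5 were 84.9 for standard ribosomal protein genes, 84.0 for mitochondrial ribosomal protein genes, 85.8 for proteasome genes, 85.4 for assembly factors and 91.3 for translation factors, and at E11.5 77.7, 78.6, 78.4, 80.2 and 87.7. No difference between these lists was tested.

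Standard genes that host annotated small nucleolar RNA genes were compared with the rest by counts and medians alone. The 30 hosts had a peak in 29 cases in each list, with median signals of 3760 and 2523, and the 47 other genes in all cases, with 3508 and 2586.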

How the data were processed

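ATAC-seq libraries of 2 replicates at each of 2 stages were analysed from 2 peak lists, 1 per stage, in which the authors had joined the replicates. Per the submitters' processing notes, cutadapt, Bowtie2, SAMtools, deepTools and Genrich were used with mm10; versions and settings are not given in the sources used here. The deposited signal per peak, −log10 p and summit offset were used. The deposited score equals 1000 times signal over width, limited to 1000, in 100% of peaks. Joined lists carry no depth.

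Starts were the outer gene ends of the RefSeq gene table (GRCm38.p6). Strand came from the RefSeq promoter table for 70 members and from GENCODE M1 for 21, without M1's coordinates, which are on another build. Assignment and overlap were tested on simulated peaks (Python 3.11.15, numpy 2.4.6, pandas 2.3.3, scipy 1.17.1).

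The members and lists were chosen with earlier results of these data known. Named were members without or with several peaks, the 5 strongest and weakest, the 3 widest, narrowest and farthest summits per list, paralogs, stalk, X-linked and disease-linked genes, except that the values of some genes are not reported here. Alternatives covered a stricter −log10 p, equal list lengths, other windows, overlaps, ranks and start sites.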

Additional observations from a re-analysis of the deposited data

How the results depend on the processing

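No paired analysis was possible because the 2 replicates of a stage share 1 list, so none could be left out either. In all, 18 alternatives gave 110 values for 10 results; 96 kept within the counting interval of the main value (or, for counts of genes, within 1.5 times), 14 moved and 0 reversed. The number of members with a promoter peak ran from 64 of 73 to 84 of 91. Counting standard genes alone, and the summit position's other settings, were chosen after seeing the data. Percentile ranks moved with the list they refer to. With −log10 p of at least 5 the members' median percentiles in the earlier and later list were 73.7 and 58.7 (all promoter peaks 81.5 and 67.5). The E10.5 list was also reduced to the length of the other, by signal or by −log10 p. The members' median percentile, ranked by signal in both cases, was then 61.7 and 61.7 (all promoter peaks 73.9 and 75.2). Ranked by −log10 p in the full lists it was 90.8 at E10.5 (all promoter peaks 87.4) and 81.3 at E11.5 (79.1). Ranked by signal among promoter peaks alone it was 41.9 and 46.7. Overlap moved with its definition. With the longer list reduced by signal, 100% of its member peaks and 95.5% of those of the shorter list overlapped the other (all promoter peaks 96.3% and 93.8%), and reduced by −log10 p, 100% of its own (97.5%). With 50% reciprocal overlap the shares were 90% and 91%, and with summits within 100 bp 78.9% and 79.8%. Since depth is unknown, an absent peak is not an absence of open chromatin.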
